A study of Mus musculus with 7 samples.

Results

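The transcripts described here belong to 9 transcription factor genes of blood stem and progenitor cells: the homeobox gene Meis1, the Hoxa genes Hoxa7, Hoxa9 and Hoxa10, the Pbx partner Pbx3, and Myb, Lmo2, Erg and Mecom. They were chosen by name, with earlier results of these data known, and every array probe whose accession belongs to one of them was taken, which gave 12 probes. Of the 9 genes, 7 passed the filter on dim probes and were tested, among 25347 tested genes in all. Of these 25347, 16690 had a gene symbol, and each other accession was counted as a gene of its own. The RNA was that of ILC2s (innate lymphoid cells of group 2), lymphocytes that lack antigen receptors and release type 2 cytokines. The 3 knockout samples came from Gfi1GFP/GFP mice, in which a GFP cassette placed in the Gfi1 locus abolishes the function of this transcriptional repressor and reports the activity of its promoter. The 4 wild-type samples came from Gfi1+/+ mice. Mice of both genotypes received IL-25 daily for 4 days, and Lin-/Sca-1+/ICOS+/CD127+/c-Kit+ cells were sorted on day 5 from mesenteric lymph nodes, 6 mice being pooled for each knockout sample and 3 for each wild-type sample. Both then spent 6 days in culture with IL-2 and IL-25 at 50 ng/ml each and IL-7 at 10 ng/ml, so the data describe expanded and stimulated cells and not ILC2s as they are in the node, and the sort itself selected for c-Kit and Sca-1. The labels give no age or strain, and the deletion is present in every cell of the knockout mice, whose ILC2s developed without Gfi1.

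In blood, Meis1 and Pbx proteins are homeodomain partners that bind DNA together with Hoxa9 and its neighbours, and this group of factors is known for keeping stem and progenitor cells immature and for driving leukaemia when it stays on. Myb is required for definitive blood formation and for lymphocyte development, Lmo2 bridges the Tal1 and Gata factors of the stem cell complex, Erg is an Ets factor of stem cells and endothelium, and Mecom encodes the zinc finger protein Evi1. Gfi1 is a zinc finger repressor whose DNA sites hold the core AATC, and in myeloid progenitors it is known to hold down Hoxa9 and Meis1.

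Of these genes, the promoters of Meis1, Myb and Hoxa9 are printed, since the first and second of them rose in knockout ILC2s and the third, a reported Gfi1 target in myeloid cells, did not pass the test. Each runs from 250 bases before to 50 bases after the gene start (RefSeq, build GRCm38.p6), 5′ to 3′ on the gene's strand, with each AATC core, or GATT where it lies on the other strand, in capitals. Meis1 lies at chr11:19018920-19019219, Myb at chr10:21160935-21161234 and Hoxa9 at chr6:52227321-52227620, all on the minus strand.
Meis1: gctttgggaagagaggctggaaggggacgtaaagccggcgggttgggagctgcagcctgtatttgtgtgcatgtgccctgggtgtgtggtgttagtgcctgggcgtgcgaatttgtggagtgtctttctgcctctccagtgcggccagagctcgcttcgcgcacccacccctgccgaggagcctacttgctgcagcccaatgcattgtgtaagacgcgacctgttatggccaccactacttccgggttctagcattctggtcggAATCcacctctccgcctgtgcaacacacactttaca
Myb: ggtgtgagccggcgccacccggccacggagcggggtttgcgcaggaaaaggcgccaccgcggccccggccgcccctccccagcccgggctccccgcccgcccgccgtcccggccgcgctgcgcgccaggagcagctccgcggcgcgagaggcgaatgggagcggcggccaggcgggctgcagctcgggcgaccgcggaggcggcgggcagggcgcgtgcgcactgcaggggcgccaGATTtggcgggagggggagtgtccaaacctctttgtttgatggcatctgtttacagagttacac
Hoxa9: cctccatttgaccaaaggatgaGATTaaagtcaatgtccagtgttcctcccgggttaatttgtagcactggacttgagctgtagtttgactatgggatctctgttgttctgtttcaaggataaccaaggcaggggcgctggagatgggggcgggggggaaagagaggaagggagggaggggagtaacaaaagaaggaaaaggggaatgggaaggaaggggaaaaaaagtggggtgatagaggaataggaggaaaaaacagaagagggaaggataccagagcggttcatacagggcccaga
Each of the 3 windows held 1 core. It began 14 bases after the start of Meis1, at position -14 for Myb and at position -228 for Hoxa9, counting the first transcribed base as 0. So short a word is common: 73.1% of 32851 mouse promoter windows of this length held at least 1, with a median of 1. An extended Gfi1 motif, which contains the core with a further base before it and a GC after a spacer and was read on both strands, stood in 2.82% of the windows and in none of the 7 member genes with a window. For Lmo2 and Pbx3 no window was taken. A Meis motif, TGACAG, was found in 19.2% of all windows and in those of Meis1, Myb and Hoxa9 not at all. The E2F motif TTTGGCGG was rare, at 0.56% of windows, and lay in the Myb window, where it began at -12 and overlaps the GATT core, and in 1 of the windows of Mecom. These matches are letters in a window and carry no measurement of binding.

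Each array held 1 ILC2 sample labelled with Cy5 and a commercial universal mouse reference RNA labelled with Cy3, with no dye swap. The value given for a probe is the log2 ratio of sample over reference, so 0 means as bright as the reference RNA, and differences are taken as knockout minus wild type. A spot not well above background carries only a bound. In the sample channel, 67.4% to 80.9% of an array's probes stood well above background. There were 7 arrays, and their small number limits the precision. The female transcript Xist and the Y-linked Ddx3y split the arrays, with Xist high and Ddx3y low in knockout array 3 and wild-type arrays 3 and 4. All 14 genes of an ILC2 marker list, Gata3, Il7r, Icos and Il2ra among them, were above background on every array. Gfi1 itself read 4.29, 4.25 and 4.29 on the knockout arrays, against 1.90, 1.87, 2.36 and 1.96 on the wild-type arrays. Since the allele keeps its promoter active and the probe's place relative to the cassette is not known, this probe checks no label. Over all tested genes, 7.52% were called at an adjusted p under 0.05 (limma, Benjamini-Hochberg over all tested genes), 3.28% as higher and 4.24% as lower, and the median difference was -0.01.

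Meis1 and Myb rose in knockout ILC2s, by 2.96-fold and 2.74-fold, and no member fell. These were 2 of the 7 tested members, against 7.52% of all tested genes, and since the genes were picked with results known, nothing is read from that share. In 2 of 7 members the knockout and wild-type arrays did not overlap at all, which was so for 18.3% of all tested genes, 8.08% with knockout above and 10.2% with knockout below. The other 5 tested members (Hoxa7, Hoxa9, Pbx3, Lmo2 and Mecom) had differences between -0.26 and 0.17, and the median over the 7 was 0.04. Hoxa10 and Erg were not above background in ILC2s of either genotype. RNA was taken from whole cultures, in which more cells of a type and more RNA per cell cannot be told apart.

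**Figure D1:**
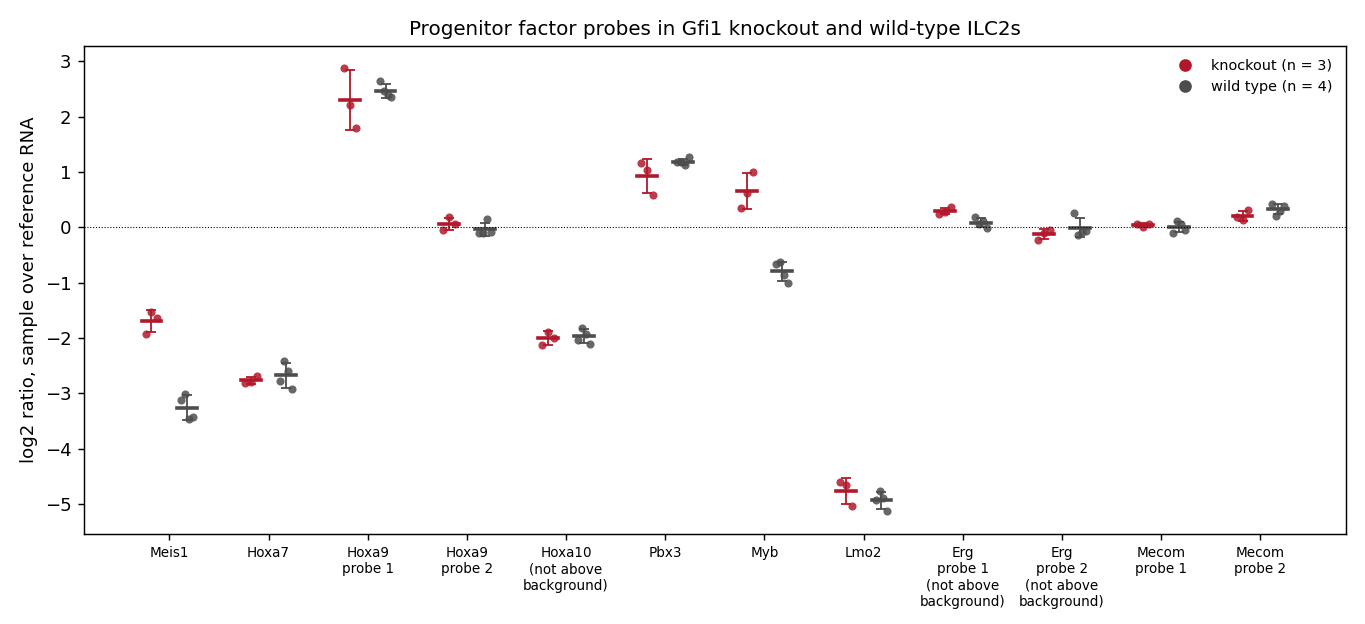
Log2 ratio of sample over reference RNA for the 12 probes of the 9 genes on each of 3 knockout and 4 wild-type arrays. Points are arrays, wide bars are means and whiskers are SD. The Meis1 and Myb arrays of the 2 genotypes lie apart, by 1.09 and 0.98 between their nearest arrays.

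Meis1 was measured by 1 probe, which was above background on all 7 arrays. Its log2 ratio was -1.92, -1.53 and -1.63 on the knockout arrays, against -3.12, -3.01, -3.47 and -3.43 on the wild-type arrays. The lowest knockout array lay 1.09 above the highest wild-type array, and every array was below the reference RNA, which is a mixture of cell lines in which Meis1 was bright. The means were -1.69 ± 0.20 in knockout ILC2s and -3.26 ± 0.23 in wild-type ILC2s (SD, n = 3 and n = 4). The difference was 1.56 (SE 0.14, 95% interval 1.25 to 1.88, limma adjusted p = 0.000261). Larger rises were seen in 81 of the 831 genes called higher.

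The rise stood in the sample channel. The normalized log2 intensity of Meis1 in that channel was 10.05, 10.53 and 10.40 on the knockout arrays, against 8.79, 8.91, 8.40 and 8.55 on the wild-type arrays, a difference of 1.66 or 3.17-fold. In the reference channel, which holds the same RNA on every array, it ran only from 11.87 to 12.05. Within the 2 slides that held both genotypes the difference in log2 ratio was 1.51 on slide 1 and 1.54 on slide 2.

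Myb, a factor that sustains proliferation of progenitors and of developing lymphocytes, also had 1 probe, above background on all 7 arrays. Its log2 ratio was 0.35, 0.62 and 1.01 in knockout ILC2s, against -0.67, -0.63, -0.87 and -1.01 in wild-type ILC2s. All knockout arrays were above the reference RNA and all wild-type arrays below it, with a gap of 0.98 between the nearest arrays. The means were 0.66 ± 0.33 and -0.80 ± 0.18 (SD, n = 3 knockout and n = 4 wild type). The difference was 1.46 (SE 0.16, 95% interval 1.11 to 1.81, limma adjusted p = 0.000709), and 89 of the 831 genes called higher rose more.

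In the sample channel the Myb signal was 11.68, 12.03 and 12.31 in knockout ILC2s, against 10.61, 10.54, 10.34 and 10.35 in wild-type ILC2s, which is 2.92-fold. The spread among knockout arrays was wider than among wild-type arrays, and the groups stayed apart in this channel too. The difference in log2 ratio was 1.36 within slide 1 and 1.49 within slide 2. With the log ratio of Xist minus that of Ddx3y as a covariate, a fit chosen after seeing the data, the difference was 1.47 for Myb (adjusted p = 0.000894) and 1.54 for Meis1 (adjusted p = 0.000268).

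**Figure D2:**
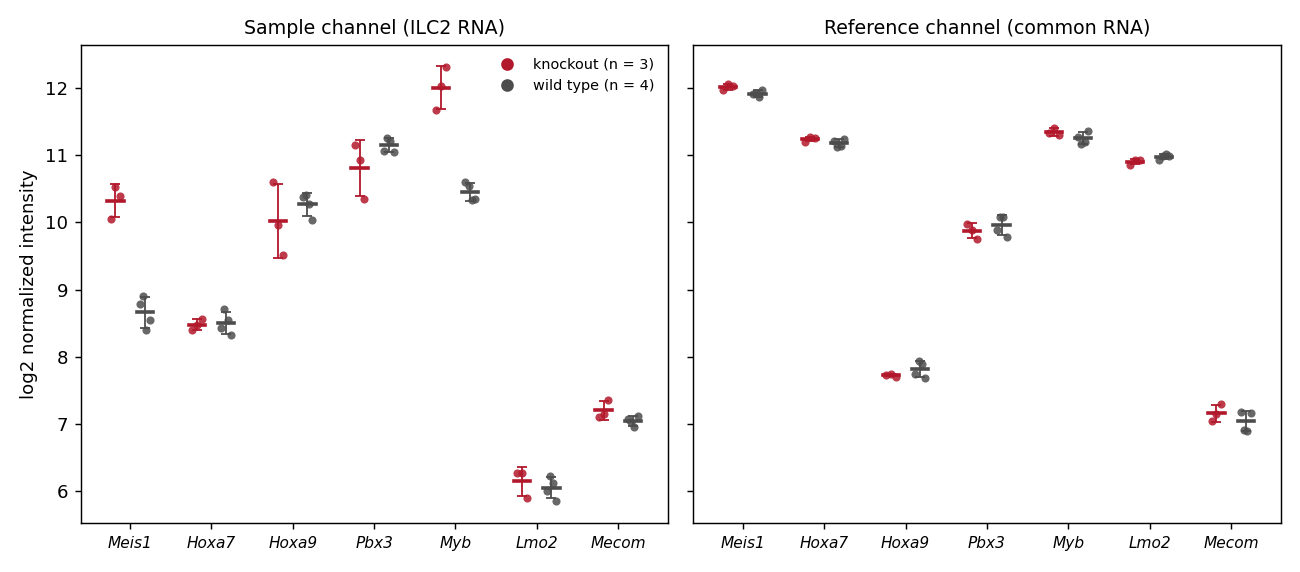
Normalized log2 intensity of the probe standing for each tested member in the sample channel (left panel) and in the common reference channel (right panel), by array, with mean and SD. The sample signal of Meis1 was 10.33 in knockout and 8.66 in wild-type ILC2s on average, and that of Myb 12.01 and 10.46, while their reference signals overlap between the genotypes. Heights of different genes are not comparable, since each probe has its own brightness.

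The Hoxa genes, which encode the partners of Meis1, gave no call. Hoxa9 had 2 probes, both above background on every array. The brighter one read 2.88, 2.21 and 1.80 on the knockout arrays, against 2.64, 2.47, 2.38 and 2.35 on the wild-type arrays. The knockout arrays held both the highest and the lowest value, so the wild-type range lay inside the knockout range. The difference was -0.16 (SE 0.21, 95% interval -0.63 to 0.31, limma adjusted p = 0.764). Single knockout arrays set its sign and size: the difference was 0.09 without knockout array 3 and -0.45 without knockout array 1 (adjusted p = 0.874 and 0.0880). It was 0.53 within slide 1, which holds knockout array 1, and -0.63 within slide 2, which holds knockout arrays 2 and 3. The interval leaves room for a moderate change either way.

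The second Hoxa9 probe read -0.04, 0.18 and 0.06 in knockout and -0.11, -0.10, 0.15 and -0.08 in wild-type ILC2s. The groups overlapped, and the difference was 0.10 (95% interval -0.12 to 0.32). The 2 probes therefore differed in sign, and neither passed the test.

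Hoxa7, a neighbour of Hoxa9 in the same cluster, read -2.81, -2.79 and -2.69 in knockout ILC2s, against -2.78, -2.42, -2.60 and -2.92 in wild-type ILC2s. The knockout values lay inside the wild-type range. The difference was -0.08 (95% interval -0.35 to 0.18, limma adjusted p = 0.784), while within slides 1 and 2 it was 0.11 and 0.04. Hoxa10, known like Hoxa9 from stem cells and leukaemia, was above background in the ILC2 channel of 0 arrays and in the reference channel of all 7. Averaged over arrays on the log2 scale, the reference stood 3.61-fold above the Hoxa10 sample signal in knockout ILC2s and 3.79-fold above it in wild-type ILC2s. For each array its own signal was taken or, where higher, the dimmest signal called above background. These are averages of array bounds, not a minimum for each array, and without a dye swap they are open to dye bias.

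Pbx3, the Pbx family member that partners Hoxa9 and Meis1 in leukaemia, had 1 probe above background on all arrays. Its log2 ratio was 1.17, 1.03 and 0.59 in knockout ILC2s, against 1.18, 1.18, 1.13 and 1.26 in wild-type ILC2s. Knockout array 3 stood well below the other 6, and knockout array 1 fell within the wild-type range. The difference was -0.26 (SE 0.13, 95% interval -0.55 to 0.04, limma adjusted p = 0.328), and it shrank to -0.09 without knockout array 3. The same array thus held the lowest Hoxa9 and Pbx3 values and the highest Myb value.

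Lmo2 was dim. It was above background on 2 knockout arrays and 1 wild-type array, and bright in the reference channel of all 7. The log2 ratios were -4.60, -4.65 and -5.03 in knockout ILC2s, against -4.92, -4.77, -4.90 and -5.13 in wild-type ILC2s. The groups overlapped, and the difference of 0.17 (95% interval -0.11 to 0.46, limma adjusted p = 0.542) came from signals at the edge of detection.

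Mecom had 2 probes for different transcript accessions, both above background in the sample channel of all arrays and both close to the reference RNA. Both were dim. The brighter had sample intensities over local background of 72 to 213, and the other was above background in the reference channel of 6 arrays. The offset of the background correction draws such ratios towards 0. The scanner's log2 ratios ran from 0.13 to 0.42 for the brighter probe and from 0.55 to 1.17 for the other. The brighter read 0.06, 0.00088 and 0.07 in knockout and -0.10, 0.11, 0.05 and -0.04 in wild-type ILC2s, a difference of 0.04 (95% interval -0.14 to 0.22, limma adjusted p = 0.857). The other read 0.18, 0.14 and 0.31 in knockout and 0.42, 0.21, 0.30 and 0.39 in wild-type ILC2s, a difference of -0.12 (95% interval -0.31 to 0.07). Both pairs of groups overlapped. Erg had 2 probes, and neither was above background in the sample or the reference channel of any array, so no level and no difference is given.

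**Figure D3:**
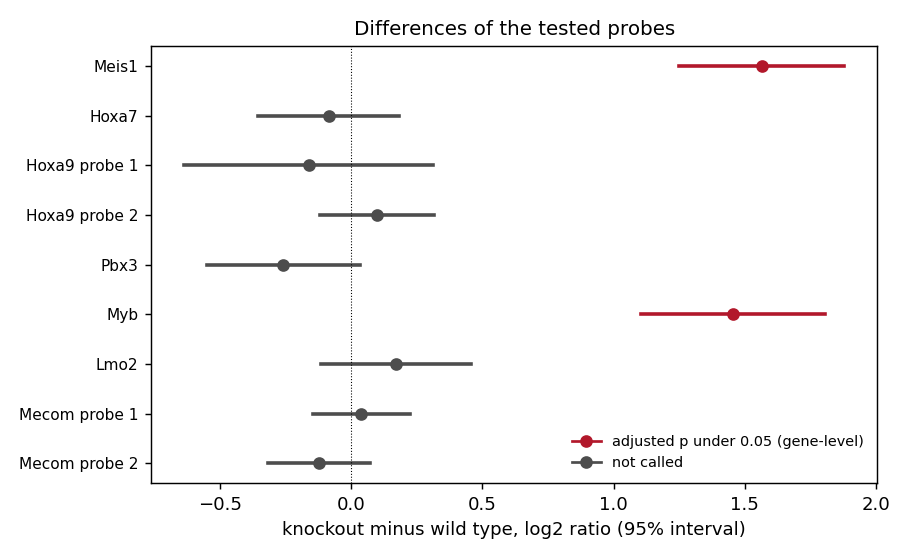
Difference of knockout minus wild type in log2 ratio for the 9 tested probes of 7 members, with 95% intervals from limma. The intervals of Meis1 (1.25 to 1.88) and Myb (1.11 to 1.81) lie above 0, and those of the other probes include 0.

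The genes around Meis1 were read from related lists. Over all tested genes 3.28% were called higher and 4.24% lower. The lists were chosen with results known, so nothing is read from the share called in any list below. Of 10 tested TALE homeobox genes, the family of Meis, Pbx, Pknox and Tgif proteins, 2 rose and 0 fell, with a list median of -0.00022. Besides Meis1, the repressor Tgif1 rose by 0.40 (limma adjusted p = 0.0260), with -1.72 ± 0.12 in knockout and -2.12 ± 0.09 in wild-type ILC2s (SD, n = 3 and n = 4). With slide as a fixed block the difference was 0.35 and the call was lost (adjusted p = 0.296). The call held in 2 of 7 fits that each left out 1 array. Slide 3 held only wild-type arrays 2 and 3, so under the fixed slide block these do not enter the genotype difference. Whether a call lost under that block, here or below, reflects the slide was not tested. Meis2, the close relative of Meis1, differed by 0.12 (adjusted p = 0.761).

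In the Hoxa cluster 0 of 7 tested genes passed the test in either direction (limma, median -0.07), and Hoxa2, Hoxa10 and Hoxa11 were above background on no array. Hoxa5 was above background on 2 knockout arrays and 0 wild-type arrays, too few for the filter, so it was not tested. In the other Hox clusters 0 of 15 rose and 4 fell, against 3.28% and 4.24% of all tested genes, with a median of -0.05 over the list. Hoxb13 fell by 0.97 (limma adjusted p = 0.00160), with -0.82 ± 0.12 in knockout and 0.15 ± 0.21 in wild-type ILC2s. Hoxc4, with a difference of -0.89, Hoxc9 with -0.74 and Hoxb4, a self-renewal factor of stem cells, with -0.44 were the others. Of the 4, Hoxb13 alone kept its call with slide as a fixed block. The differences there were -0.80 for Hoxc4, -0.70 for Hoxc9 and -0.43 for Hoxb4, with adjusted p-values of 0.127, 0.0503 and 0.152. Hoxb4 also lost its call without knockout array 2.

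Of 5 tested genes of the Myb family and its cofactors 1 rose, Myb itself, and the median was 0.04. Mybl2, the family member of dividing cells, differed by 0.42 (limma adjusted p = 0.309) and by 0.59 on its second probe (adjusted p = 0.156 over probes), and the coactivators Crebbp and Ep300 by -0.12 and -0.01. Of 9 genes reported as Myb targets 0 rose and 1 fell, with a median of -0.00012. That gene was Gata3, the master factor of ILC2s, at 3.54 ± 0.39 in knockout and 4.47 ± 0.15 in wild-type ILC2s (SD, n = 3 and n = 4). Its difference of -0.93 had a limma adjusted p of 0.0101, and with slide as a fixed block it was -0.85 with an adjusted p of 0.138. The survival gene Bcl2 differed by 0.28 (adjusted p = 0.283), Myc by 0.02 and the receptor Kit, for which the cells were sorted, by 0.62 (adjusted p = 0.0863).

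Of 12 tested genes reported as Hoxa9 and Meis1 targets, 2 rose and 1 fell, with a median of 0.05. The risers were Myb and Sox4, an HMG-box factor of progenitors, which rose by 0.77 (limma adjusted p = 0.00808). A second Sox4 probe differed by 0.27 (adjusted p = 0.149 over probes), and with slide as a fixed block the first differed by 0.66 with an adjusted p of 0.125. Trib2, a pseudokinase that transforms myeloid cells, fell by 0.92 (adjusted p = 0.0261), while its second probe differed by -0.01. With the slide block the Trib2 difference was -0.57 (adjusted p = 0.129), and the call held in 3 of 7 fits that each left out 1 array, being lost without knockout array 2 or 3 or wild-type array 2 or 3. Flt3, a receptor of early progenitors, differed by 0.05 (adjusted p = 0.835).

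Among partners of Lmo2, 0 of 12 tested genes rose and 1 fell. Lmo4, a LIM-only relative that competes for the same Ldb1 adaptor, fell by 0.99 (limma adjusted p = 0.0190), to 1.27 ± 0.26 in knockout against 2.26 ± 0.39 in wild-type ILC2s (SD, n = 3 and n = 4), and its second probe differed by -0.76. With slide as a fixed block the Lmo4 difference was -0.79 with an adjusted p of 0.244, and its call was also lost without knockout array 2. Of 9 tested Ets factors, 0 rose and Ets2 fell by 0.38 (adjusted p = 0.0393). With the slide block Ets2 differed by -0.41 (adjusted p = 0.236), and its call held in 2 of 7 fits that left out 1 array. Of 6 tested genes of the Mecom, Prdm16 and corepressor list none passed the test.

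The chromatin complexes that maintain or silence Hox genes were read last. Kmt2a, the MLL gene itself, had no probe named for it and was not measured. Of 14 tested genes of the MLL, menin and DOT1L list 0 rose and 1 fell, with a median of -0.14. It was Aff4, a scaffold of the super elongation complex, which fell by 0.94 (limma adjusted p = 0.00641, and 0.0371 with the slide block), with 1.31 ± 0.27 in knockout and 2.25 ± 0.23 in wild-type ILC2s. Of 14 tested Polycomb genes 1 rose and 0 fell. Eed, the core subunit that reads methylated H3K27, rose by 0.65 (adjusted p = 0.0121). With the slide block Eed differed by 0.60 (adjusted p = 0.181), and its call was also lost without knockout array 2.

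**Figure D4:**
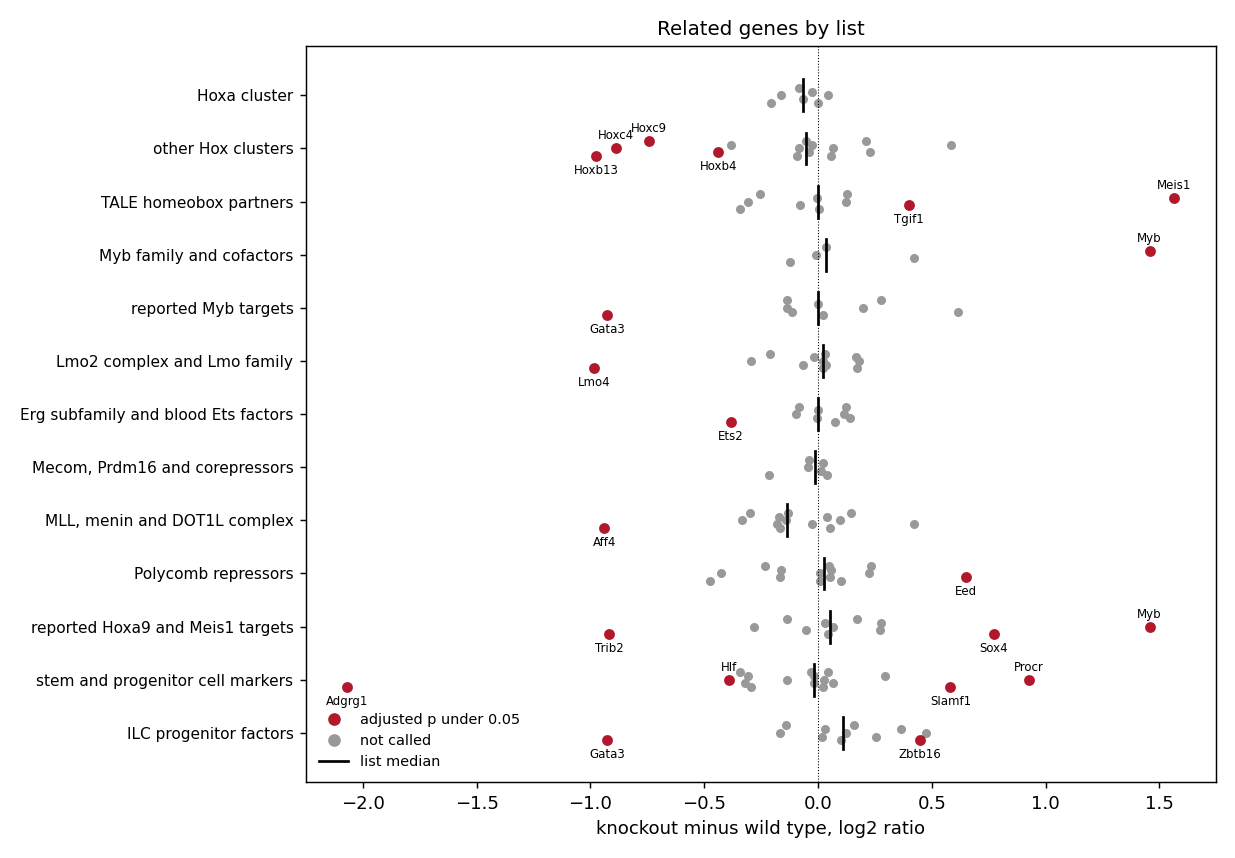
Difference of knockout minus wild type in log2 ratio for the tested genes of 13 related lists. Points in red passed an adjusted p of 0.05 and black lines are list medians, which run from -0.14 to 0.11. Meis1 and Myb are the points farthest to the right, at 1.56 and 1.46, and a gene may stand in more than 1 list.

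Other markers of immature cells were set beside Meis1 and Myb. Of 23 stem and progenitor cell markers 17 were tested, of which 2 rose and 2 fell, with a median of -0.02. Procr, the protein C receptor of stem cells, rose by 0.93 (limma adjusted p = 0.00191), with -1.77 ± 0.17 in knockout and -2.70 ± 0.18 in wild-type ILC2s (SD, n = 3 and n = 4). Slamf1, a SLAM receptor of stem cells and lymphocytes, rose by 0.58 (adjusted p = 0.00181), but its probe was above background on 3 knockout arrays and only 2 wild-type arrays, so it passed the filter through the group where it is high and the size of the rise is uncertain. Adgrg1, an adhesion receptor of stem cells, fell by 2.07 (adjusted p = 0.00223), with -1.99 ± 0.35 in knockout and 0.08 ± 0.54 in wild-type ILC2s. Hlf, a stem cell bZIP factor, fell by 0.39 (adjusted p = 0.0261). With the slide block Hlf differed by -0.37 (adjusted p = 0.161), and its call held in 2 of 7 fits that left out 1 array.

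The summed intensity of that list ran from 16846 to 19509 on knockout arrays and from 24088 to 30839 on wild-type arrays, lower in every knockout array. Mn1, Angpt1, Tie1 and Tek were above background on no array. Cd34, which defines many progenitors, differed by -0.14 (limma adjusted p = 0.616). Of 12 ILC progenitor factors 1 rose and 1 fell, with a median of 0.11. Zbtb16, which encodes the PLZF factor of ILC precursors, rose by 0.45 at an adjusted p of 0.04995, and Gata3 fell. With the slide block Zbtb16 differed by 0.42 (adjusted p = 0.374), and its call held in 1 of 7 fits that left out 1 array. What part these markers' cells have in the Meis1 and Myb values was not tested.

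Markers of other cells moved in few cases. None of 12 neutrophil and monocyte, 9 T cell, 9 B cell or 7 dendritic cell markers passed the test (limma). The T cell markers had a median of 0.20, and 7 of the 9 were above 0. Among them the T cell receptor chain gene Cd3d differed by 1.08 (95% interval 0.07 to 2.10, adjusted p = 0.222), Cd3e by 0.39 (adjusted p = 0.279) and Cd3g by -0.07. The groups of Cd3e and Cd8a did not overlap, which was so for 18.3% of all tested genes, 8.08% with knockout above. The T cell list ranged in summed intensity from 10110 to 21205 on knockout and from 10494 to 17094 on wild-type arrays, and the B cell list from 14193 to 17449 and from 16514 to 20288. The neutrophil and monocyte list ranged from 42187 to 72870 on knockout and from 49535 to 68768 on wild-type arrays, and that of dendritic cells from 51217 to 52646 and from 52320 to 61128. In each of these 4 lists the ranges of the genotypes overlapped.

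Mast cell and basophil markers gave 2 falls among 8 tested, Cpa3 by 0.51 and Hdc by 0.36, with adjusted p-values of 0.0402 and 0.0189. With the slide block they differed by -0.53 and -0.35 (adjusted p = 0.249 and 0.220), and the calls held in 1 and 3 of 7 fits that left out 1 array. The list summed to 1945 to 2002 on knockout and 2015 to 2231 on wild-type arrays. Erythroid and megakaryocyte markers gave 1 fall among 11, the globin Hba-a1 by 0.85 (limma adjusted p = 0.0141), with the same difference and an adjusted p of 0.169 under the slide block. Their summed intensity was 4083 to 5933 on knockout and 4194 to 4799 on wild-type arrays. Of 7 tested endothelial and stromal genes 1 rose, the growth factor receptor Pdgfrb, by 1.78 (adjusted p = 0.000300), and the list summed to 5234 to 5665 on knockout and 4802 to 5153 on wild-type arrays. The summed level was thus higher on every knockout array for the endothelial and stromal list and lower on every one for the mast cell and basophil list. The medians of these lists were -0.04 and -0.0023, with 3 of 7 and 4 of 8 tested differences above 0. Each probe has its own brightness, so a sum can follow a few genes and not the list. Of the 14 ILC2 markers 1 rose and 3 fell, with a median of -0.30, and their summed intensity ran from 603342 to 746197 on knockout and from 835628 to 1130660 on wild-type arrays, lower on every knockout array. Il17rb, the IL-25 receptor subunit, rose by 1.85, and Il1rl1, the IL-33 receptor, fell by 1.89, with Gata3 and Ly6a (which encodes Sca-1, -0.72) also lower. A second Il17rb probe, above background on only 1 wild-type array, differed by 0.48. Other Il1rl1 probes differed by -0.76 and -1.14. For the first Il1rl1 probe the normalized sample channel differed by -1.39 and the normalized reference channel by 0.49. The part of these shifts in the Meis1 and Myb values was not tested.

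The genes most like Meis1 in profile were sought among all tested genes with a symbol, as those whose 7 log2 ratios, centred on their own mean, had the smallest root mean square difference from it. These were 1500009L16Rik (0.0707), Id3 (0.128) and Myb (0.159). Id3, an inhibitor of E proteins, read -0.47, -0.27 and -0.30 in knockout ILC2s, against -1.52, -1.74, -1.97 and -1.88 in wild-type ILC2s, and rose by 1.43 (limma adjusted p = 0.000159). The RIKEN gene rose by 1.61, so that all 3 share with Meis1 a step of similar height between the genotypes.

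The genes most like Myb were Derl3 (0.139), Sh3bp4 (0.146) and Nkg7 (0.148). Derl3, an endoplasmic reticulum protein of the degradation pathway, read -0.38, -0.06 and 0.30 in knockout ILC2s and -1.60, -1.65, -1.86 and -1.71 in wild-type ILC2s. Knockout array 3 was the highest and knockout array 1 the lowest for Derl3, as for Myb. Nkg7, a granule protein of cytotoxic lymphocytes, rose by 1.33 (limma adjusted p = 0.00405) and Sh3bp4, an endocytic adaptor, by 1.52. The likeness is measured over only 7 arrays in 2 groups, so it rests largely on the step between genotypes.

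**Figure D5:**
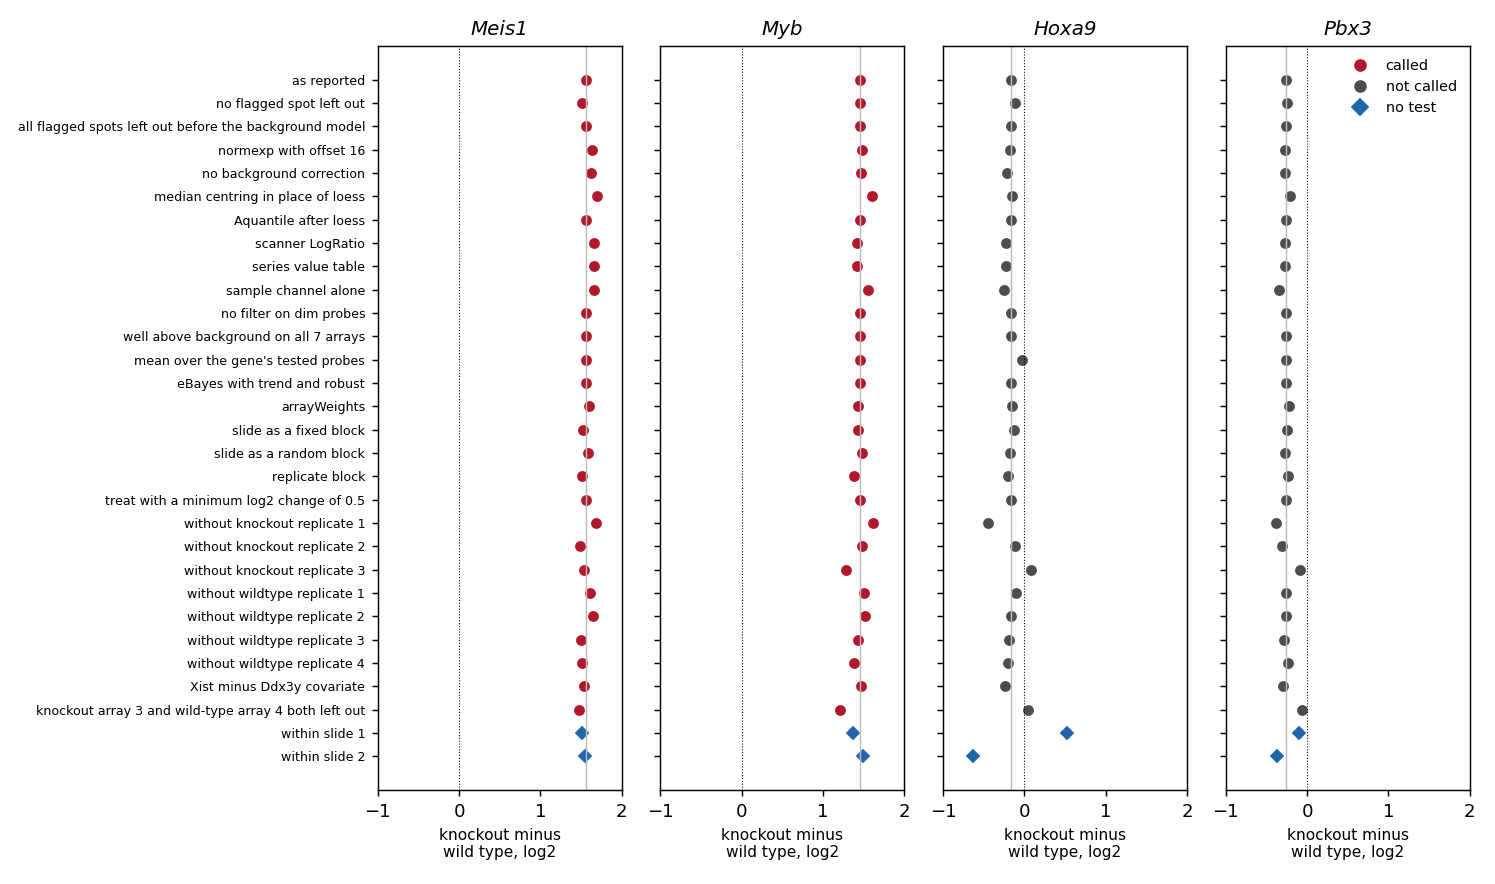
Difference of knockout minus wild type in log2 ratio for Meis1, Myb, Hoxa9 and Pbx3 under each processing setting and within each slide that held both genotypes. Red points passed the test, grey points did not, and blue diamonds have no test. Meis1 stays between 1.48 and 1.70 and Myb between 1.21 and 1.61 over the 27 settings with a test, while Hoxa9 changes sign without knockout array 3 and between the slides.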

How the data were processed

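The authors deposited 7 two-colour Agilent scanner files that give linear intensity values for each spot, written by Feature Extraction 11.0.1.1 per the file headers (10.7.3.1 per the submitters' processing notes). Each file also holds a log10 ratio of red over green, background-subtracted and dye-normalized per the file headers. Log2 ratios make up the deposited series table, equal to the log10 ratio turned to log2 within 0.001, with column medians from 0.163 to 0.254. The red dye carried the ILC2 sample, per the labels.

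Median foreground and local background intensities were corrected with normexp (offset 50) and normalized by loess within arrays, control spots having weight 0, in limma 3.58.1 (R 4.3.3). Flagged outlier spots (2597) and control spots were left out, and no member probe lost a value. Spots of a probe were averaged, and the brightest tested probe stood for a gene. Probes were named by accession through a RefSeq table (GRCm38.p6): 26581 of 39429 had 1 gene and 12848 none. The array design uses mm9, so probes have no coordinates here. Probes above background in the sample channel on at least 3 arrays and with at least 2 values per group were tested, 30293 probes and 25347 genes. An accession without a gene name counted as a gene. Groups were compared with lmFit and eBayes without a block, adjusted by Benjamini-Hochberg over all tested genes. Samples are separate pools of mice, per the labels. Normalized channel intensities were rebuilt from the loess log ratio and the mean intensity of both channels after quantile normalization between arrays. Summed intensities add the linear sample-channel values of 1 probe per listed gene. The normexp offset draws ratios of dim probes towards 0.

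The members and lists were chosen with earlier results of these data known. Named genes were all members, up to 6 called genes of each list by size, the 3 genes most like each called member, and Gfi1; genes named although not called were chosen after their values were seen. The fit was tested on simulated data. Figures used matplotlib 3.10.9. Alternatives covered spot flags, background, normalization, filters, probe choice, variance model, slide, replicate number and arrays left out.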

Additional observations from a re-analysis of the deposited data

Results flagged for a closer look

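The second Hoxa9 probe was singled out because wild-type array 3, at 0.15, lay far from the other 3 wild-type arrays, which read -0.11, -0.10 and -0.08. Its gap to the nearest of them was 0.894 of the whole range of the 4 arrays, which is past the critical value at the 95% level, a level at which chance alone singles out some groups. The knockout arrays read -0.04, 0.18 and 0.06, so wild-type array 3 lay inside the knockout range.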

How the results depend on the processing

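Meis1 and Myb were called as higher, and no other member was called, under all 27 alternatives with a test. These are not 27 separate checks. Quantile normalization of mean intensities leaves the log ratios as they were, and the series value table repeats the scanner's ratio. The replicate block gives Meis1 and Myb the same differences as leaving out wild-type array 4. Meis1 ran from 1.48 to 1.70 (adjusted p 0.000140 to 0.00619) and Myb from 1.21 to 1.61 (adjusted p 0.000317 to 0.0138). The count of called genes over the whole array moved more. From 1905 it went to 478 with slide as a fixed block and to 2122 with slide as a random block. In the fixed block, slide 3, which held only wild-type arrays, does not enter the genotype difference. The count was 1081 with the replicate block and 210 with a minimum log2 change of 0.5. With knockout array 3 and wild-type array 4 both left out, an alternative chosen after seeing the data, it was 1137. Leaving out each array in turn gave 1264 (without knockout array 2) to 1898 calls, with 1268 without wild-type array 4. The cause of these shifts was not tested. Median centring in place of loess made 55.4% of the calls higher, against 43.6%. Deviations of same-numbered arrays correlated at 0.0361, 0.240 and 0.0210, while those of other pairs ran from -0.241 to 0.270. So few arrays cannot show whether replicate numbers pair the samples. With the replicate block Meis1 was 1.51 and Myb 1.38, both still called. Signs of uncalled members turned in 8 cases with a test, and within slides, where there is no test, for Hoxa7 on both (0.11 and 0.04) and Hoxa9 on slide 1 (0.53). Hoxa7 read 0.070 with slide as a fixed block and ran from -0.17 to 0.0026 with 1 array left out, the highest without wild-type array 2. Hoxa9 ran from -0.45 without knockout array 1 to 0.086 without knockout array 3, and read 0.050 without that array and wild-type array 4. Lmo2 read -0.15 with no flagged spot left out and 0.82 with the scanner's ratio. Mecom read -0.041 with the scanner's ratio and with the series value table, and -0.040 with the mean over probes. Signal over background limits Lmo2, Hoxa10 and Erg, and Mecom was dim too.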
